A study of Mus musculus with 12 samples.

Results

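The 10 genes described here are Nfe2l2, which encodes NRF2, its repressor Bach1, and 8 antioxidant genes that NRF2 is known to switch on, among 21900 protein-coding genes that RefSeq lists in the GRCm38 mouse assembly. Their binding by the AP-1 transcription factor FRA-1 was measured by chromatin immunoprecipitation and sequencing (ChIP-seq) in peritoneal macrophages of mice aged 8 weeks. A FRA-1 peak, a stretch where precipitated DNA fragments pile up, was assigned to a gene when it overlapped the gene body or the 20 kb on either side of it, or when the deposited gene column named the gene. All segments that this column gave to the 10 genes, 6 in number, lay inside these windows already. A total of 130 peaks met this rule over 9 ChIP-seq replicates. The annotation used gives gene bodies and starts without exons, so that a position inside a gene was not assigned to an exon or intron.

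Macrophages were left unstimulated, stimulated with LPS, a cell wall component of Gram-negative bacteria, or given apoptotic cells at a ratio of 1:5, with 3 replicates per condition. According to the design text, stimulation took 1 h and followed overnight plating. For LPS, that text names 10 µg/mL and the treatment protocol 1 µg/mL. The protocol also describes macrophages elicited by an intraperitoneal injection of 2.5 ml of 4% thioglycollate medium and harvested after 72 h, whereas the design text describes lavage of C57Bl/6 mice without elicitation. The growth protocol gives a mixed 129/C57Bl6 background and mice of either sex. The sample titles name the same 3 mice in each of the 3 conditions, but the score columns carry no mouse label. The replicates were therefore numbered by their order in the deposited tables and compared without pairing, and whether they came from separate mice could not be read from the tables. All conditions shared the antibody target, and no FRA-1-deficient cells were analysed here. The tables hold no expression values, so that the macrophage identity of the cells could not be checked against marker genes.

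NRF2 is a basic leucine zipper factor that is held in the cytoplasm and sent to degradation by KEAP1 as long as the cell is free of oxidative stress. Oxidants and electrophiles release it, and it then binds antioxidant response elements together with a small MAF protein, while BACH1 competes for the same elements and represses them until heme removes it. FRA-1, encoded by Fosl1, is also a basic leucine zipper protein and binds AP-1 elements as a dimer with a JUN protein. The AP-1 element and the antioxidant response element share their first bases. In macrophages, NRF2 is known to limit oxidative and inflammatory damage.

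The shared bases can be seen in the promoters of the antioxidant genes themselves. RefSeq sequences from 250 bases before to 50 bases after the transcription start (GRCm38) were found for 8 of the 10 genes, in 10 promoters, and not for Hmox1 or Gclc. They were searched on both strands for the AP-1 element TGACTCA, also called TRE, for the cyclic AMP response element TGACGTCA and for the core of the antioxidant response element, TGACNNNGC. The TRE was found in 1 of the 8 genes, Srxn1, and in 4.66% of all 21263 promoters. The antioxidant core was found in 4 of the 8 genes, Nfe2l2, Srxn1, Gclm and Txnrd1, and in 13.0% of all promoters. The cyclic AMP response element was found in 0 of the 8 genes and in 2.23% of all promoters. When any base was allowed at the fourth position of the TRE, TGANTCA, still only Srxn1 among the 8 genes had it, against 6.99% of all promoters. The stretches that hold these elements upstream of a start are printed 5′ to 3′ along the gene, with the element in capitals. Nfe2l2 (chr2:75704870-75704913, minus strand, antioxidant core), Srxn1 (chr2:152105397-152105510, plus strand, a pair of TREs in the reverse orientation), Gclm (chr3:122245398-122245456, plus strand, antioxidant core in reverse) and Txnrd1 (chr10:82859089-82859147, plus strand, antioxidant core in reverse) read as follows.
Nfe2l2: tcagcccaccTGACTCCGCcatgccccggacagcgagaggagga
Srxn1: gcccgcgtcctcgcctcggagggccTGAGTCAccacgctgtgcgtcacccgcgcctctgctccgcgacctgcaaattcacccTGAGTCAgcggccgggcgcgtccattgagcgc
Gclm: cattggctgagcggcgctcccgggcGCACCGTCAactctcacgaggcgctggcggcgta
Txnrd1: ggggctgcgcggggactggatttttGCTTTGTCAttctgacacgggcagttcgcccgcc
In Nfe2l2 the core lies at -240 to -232 from the start, in Gclm at -134 to -126 and in Txnrd1 at -92 to -84. The TREs of Srxn1 lie at -102 to -96 and at -45 to -39, and its antioxidant core lies in the transcribed part, at 28 to 36. These matches describe letters only and are not evidence of binding.

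FRA-1 peaks were not listed at these promoters. None of the 10 promoter windows overlapped a peak in any of the 9 replicates, against 4.35% of all promoters with a peak in at least 1 replicate and 0.437% with a peak in at least 2. Within 1 kb of a start, 3 of the 8 genes had a peak in any of the 9 replicates. For this rule no share over all genes is given. The shares given below ask for at least 2 replicates of a condition and cannot be set beside it. Txnrd1 has 3 listed starts and the others 1 each. At Slc7a11, the cystine/glutamate antiporter that feeds glutathione synthesis, a peak lay within 1 kb in LPS replicates 1 and 3 and in apoptotic cell replicates 1 and 3. At Txnrd1, thioredoxin reductase, it did so in the third replicate of LPS and of apoptotic cells. At Srxn1, which repairs overoxidised peroxiredoxins, only unstimulated replicate 2 had such a peak, 693 bp below the lower end of the gene and thus upstream of the TREs printed above, with a score of 173.31 (percentile 72.7). A start with a peak within 1 kb in at least 2 replicates was found in 0.475% of 17492 genes without stimulation, in 2.77% after LPS and in 1.06% after apoptotic cells. Among the 8 genes with a listed start, Slc7a11 alone met this rule, after LPS and after apoptotic cells.

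Each deposited score is that of a peak in 1 replicate and was read, from its range of 50.01 to 3188.85, as 10 times the negative log10 of the peak's p-value, so that a higher score stands for stronger evidence of a peak. Scores were not scaled between replicates, and 92.9 to 96.8% of the peaks of a replicate shared their score with another peak. For the positions described below, scores are therefore given together with their percentile among all peaks of the same replicate. The tables hold no read counts, and the sequencing depth is unknown. The number of peaks in the whole genome was 20981 to 28314 in unstimulated, 39728 to 63010 in LPS-stimulated and 31501 to 79474 in apoptotic cell replicates. The share of all genes with a peak in their window rose alongside, from 41.4 to 52.3% in unstimulated replicates to 61.1 to 79.1% after LPS and 54.9 to 82.7% after apoptotic cells. The smallest peak width divided the replicates, being 104 to 116 bp in unstimulated replicate 3, LPS replicates 1 and 3 and apoptotic cell replicate 3 (narrow), and 158 to 172 bp in the other 5 (wide). LPS replicates 1 and 3 had 24.2% of their merged peaks in common, other pairs within a condition 4.23 to 8.33%. Unstimulated replicate 3 shared more with LPS replicates 1 and 3 (13.2 and 11.9%) than with unstimulated replicates 1 and 2 (5.44 and 6.33%). Each apoptotic cell replicate likewise shared more with LPS replicates 1 and 3 (6.53 to 11.3%) than with the other replicates of its own condition (4.93 to 8.33%).

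A FRA-1 peak in at least 1 replicate was found near 9 of the 10 genes without stimulation (all but Txnrd1), near 9 after LPS (all but Srxn1) and near all 10 after apoptotic cells. Over all genes, the share for this rule is not given. It cannot lie below the highest share of a single replicate. That was 52.3% without stimulation, 79.1% after LPS and 82.7% after apoptotic cells, so that most genes met this rule. The 10 genes together had 8, 10 and 7 peaks in the unstimulated replicates (8.33 ± 1.53, SD, n = 3), 19, 7 and 30 in the LPS replicates (18.7 ± 11.5, SD, n = 3) and 16, 10 and 23 in the apoptotic cell replicates (16.3 ± 6.51, SD, n = 3). LPS replicate 2 was as low as the unstimulated replicates, so that the groups overlapped. Among the 20981 top-scoring peaks of every replicate, the number in the replicate with the fewest, the 10 genes had 8, 10 and 7 unstimulated peaks, 13, 5 and 9 after LPS and 9, 7 and 7 after apoptotic cells, so that the apoptotic cell values then lay within the unstimulated range and the LPS values on both sides of it. Ties at the cut entered these counts. In LPS replicate 2, a Sqstm1 peak with the lowest kept score, 126.89, was kept. In apoptotic cell replicate 2, a Gclc peak with the lowest kept score, 113.81, was not. Counted per gene, LPS replicate 1 had 1.9 peaks per antioxidant gene and 1.72 per gene over all 21900 genes, LPS replicate 3 had 3.0 and 2.53, and LPS replicate 2 only 0.7 and 1.37. After apoptotic cells, the means were 1.6, 1.0 and 2.3 per antioxidant gene and 1.43, 1.11 and 2.90 per gene over all genes. Without stimulation they were 0.8, 1.0 and 0.7 against 0.903, 0.728 and 1.02. Thus the antioxidant genes lay above the mean of all genes in 4 replicates and below it in 5. This count does not allow for the length of the windows. Per 100 kb of window, unstimulated replicate 1 (1.05 against 1.03) and apoptotic cell replicate 2 (1.31 against 1.26) also lay above all genes. The other replicates kept their side.

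**Figure D1:**
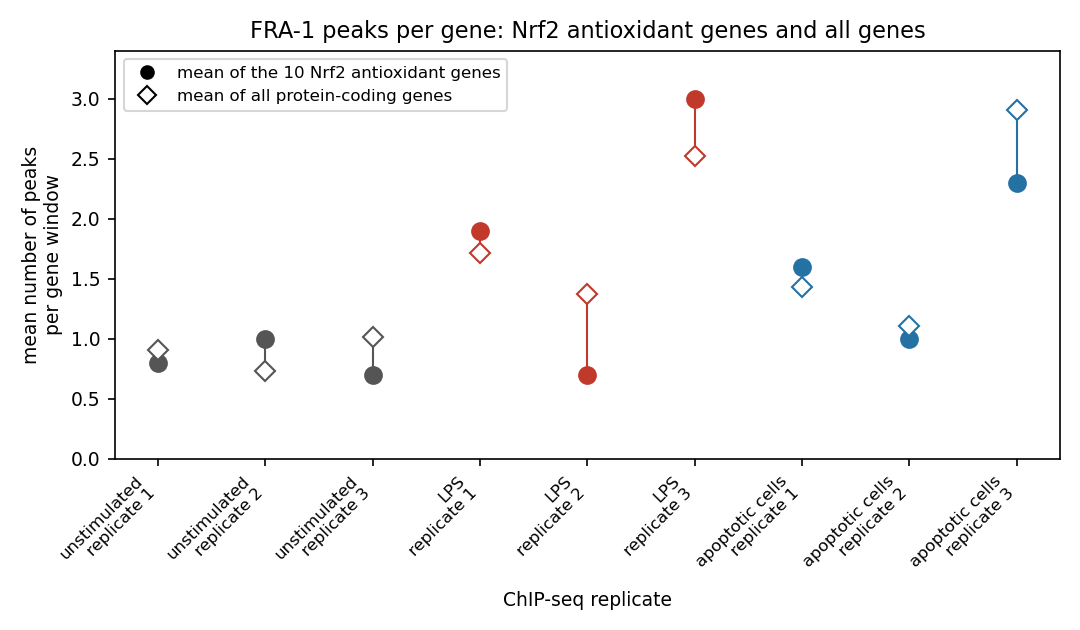
Mean number of FRA-1 peaks per gene window (y axis, peaks within the gene body or 20 kb of it) in each of the 9 ChIP-seq replicates (x axis), for the 10 Nrf2 antioxidant genes (filled circles) and for all 21900 protein-coding genes (open diamonds). The circle lies above the diamond in unstimulated replicate 2, LPS replicates 1 and 3 and apoptotic cell replicate 1, and LPS replicate 2 shows the widest gap downwards, 0.7 against 1.37.

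Without stimulation, 4 of the 10 genes had a peak in at least 2 of the 3 replicates, where 44.6% of all genes did. After LPS, 9 of the 10 did so, where 73.5% of all genes did, and after apoptotic cells 5 of the 10, where 69.6% of all genes did. The unstimulated genes were Nqo1, Gclc, Slc7a11 and Sqstm1. After LPS, Srxn1 was the only gene that did not meet this rule, with 0 peaks in all 3 replicates. After apoptotic cells, the genes were Nfe2l2, Gclc, Gclm, Slc7a11 and Txnrd1. The LPS count fell to 5 when replicate 1 or replicate 3 was left out, and the unstimulated count fell to 1 without replicate 3 and to 2 without replicate 1. The apoptotic cell count fell to 3 without replicate 1 or replicate 3. With a replicate left out, the rule asks for a peak in both others, so that these counts could only stay or fall.

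**Figure D2:**
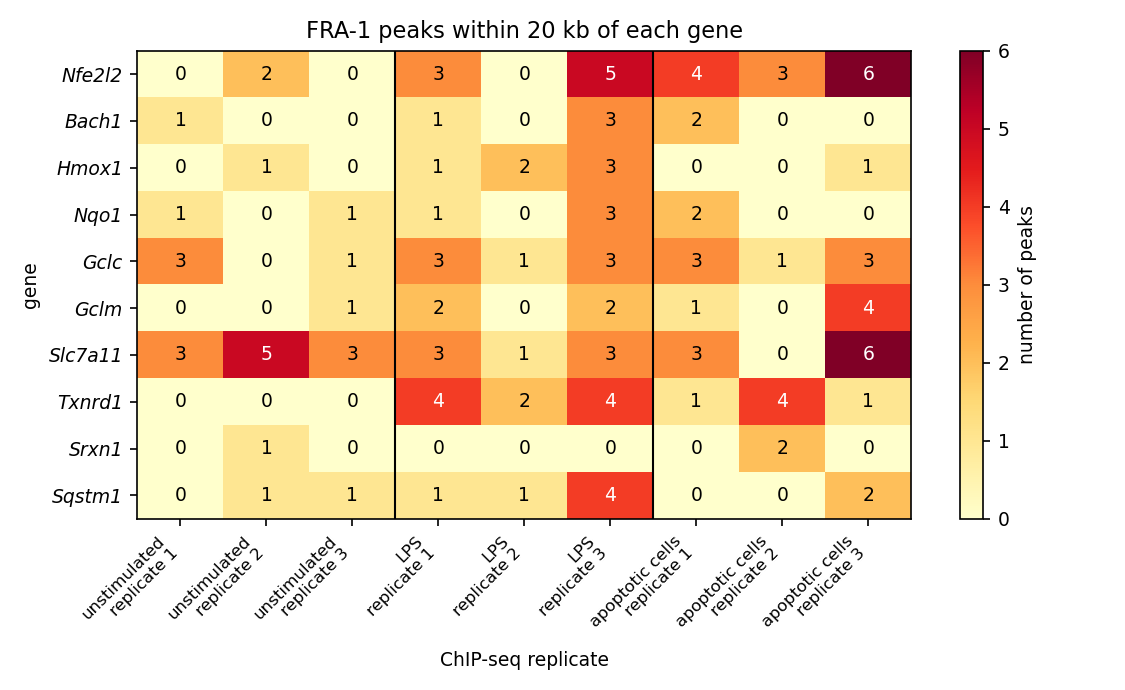
Number of FRA-1 peaks within the gene body or 20 kb of it, printed and coloured for each of the 10 genes (rows) in each of the 9 replicates (columns, separated by condition). Txnrd1 had 0 peaks in the 3 unstimulated replicates and at least 1 in each of the other 6, Nfe2l2 reached 6 in apoptotic cell replicate 3, and Slc7a11, which has the longest window, held peaks in all 3 unstimulated replicates.

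Txnrd1 was the only one of the 10 genes with more peaks in every LPS replicate than in every unstimulated replicate, a pattern that 9.87% of all genes showed in this direction and 0.187% in the other. Of the 10 genes, 0 showed the reverse. The Txnrd1 window (gene body chr10:82833951-82897724, which also takes in Eid3) held 0, 0 and 0 peaks in the unstimulated replicates, 4, 2 and 4 in the LPS replicates and 1, 4 and 1 in the apoptotic cell replicates. The unstimulated values lay below all others. The mean difference was 3.33 peaks for LPS over unstimulated and 2.0 for apoptotic cells over unstimulated (exact permutation test, two-sided, p = 0.1 for both, the smallest that 3 against 3 replicates allow). After Benjamini-Hochberg adjustment over all 21900 genes, these exact permutation p-values were 0.981 and 1.0. No gene passed a threshold of 0.05, adjusted or unadjusted, since this design cannot reach it.

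The 16 peaks of Txnrd1 fell on 16 separate regions, and 0 of these were shared by any pair of replicates. LPS replicate 2 had peaks at chr10:82854398-82854616 with a score of 186.69 (percentile 81.6) and at chr10:82872481-82872694 with a score of 250.17 (percentile 94.6), the latter being the 1 segment that the deposited LPS table gives to Txnrd1. LPS replicate 3 had its highest-scoring peak at chr10:82856779-82856896 (score 324.62, percentile 87.1). A further peak of the same replicate, at chr10:82858757-82858865, had its midpoint 395 bp upstream of an inner start of Txnrd1, on the upstream side of the stretch printed above. In apoptotic cell replicate 3, the peak nearest to a start had its midpoint 845 bp downstream of the outermost start, with a percentile of 50.9. No position at Txnrd1 was thus common to a pair of replicates. Among the replicates of the wide class, the unstimulated ones had 0 and 0 peaks, that of LPS 2 and those of apoptotic cells 1 and 4. Among the narrow ones, the unstimulated replicate had 0 peaks, those of LPS 4 and 4 and that of apoptotic cells 1. As all unstimulated values at Txnrd1 were 0, this split could not have given another order, and the part of the width class was not tested. Among the equal numbers of top-scoring peaks, the LPS difference was 1.67 and still without overlap, as in 1.78% of all genes. The groups of the difference for apoptotic cells then overlapped.

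Nfe2l2 was the other gene whose replicates did not overlap between apoptotic cells and unstimulated macrophages, so that 2 of the 10 genes, Nfe2l2 and Txnrd1, showed this pattern, as did 6.56% of all genes. The reverse was seen in 0 of the 10 genes and in 0.169% of all genes. The Nfe2l2 window (gene body chr2:75675513-75704663, minus strand) held 0, 2 and 0 peaks in the unstimulated replicates, 3, 0 and 5 in the LPS replicates and 4, 3 and 6 in the apoptotic cell replicates. All apoptotic cell values lay above the unstimulated ones, while the LPS values ranged from 0 to 5. In the wide class, the unstimulated values were 0 and 2, that after LPS 0 and those after apoptotic cells 4 and 3. In the narrow class, the unstimulated value was 0, those after LPS 3 and 5 and that after apoptotic cells 6. The mean difference between apoptotic cells and unstimulated was 3.67 peaks (exact permutation test, two-sided, p = 0.1, adjusted p = 1.0 over all genes). It was 2.33 among peaks with scores of at least 100 and 1.67 among equal numbers of top-scoring peaks, and the groups overlapped in both cases. They also overlapped when only peaks nearest to Nfe2l2 were counted, since the window takes in Hnrnpa3, which encodes an RNA-binding protein.

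The most widely shared position at Nfe2l2 lay far from its start. At chr2:75656406-75656910, 18603 bp beyond the 3′ end of Nfe2l2, a peak was listed in all 3 apoptotic cell replicates, with scores of 184.58, 123.34 and 205.88 (percentiles 83.5, 36.3 and 95.1), and in LPS replicates 1 and 3, with scores of 209.12 and 344.07 (percentiles 80.6 and 88.1). No unstimulated replicate had a peak there. It was the only position at any of the 10 genes with a peak in all 3 apoptotic cell replicates, and Hnrnpa3, at 2195 bp, is nearer to it than Nfe2l2. A second position, chr2:75671838-75672148, lay 3365 bp beyond the 3′ end and was shared by LPS replicates 1 and 3 (scores 297.61 and 179.38, percentiles 93.0 and 49.8) and apoptotic cell replicates 1 and 3 (scores 142.97 and 72.55, percentiles 64.7 and 14.4), and here again Hnrnpa3 was nearer, at 2431 bp. Inside Nfe2l2, chr2:75690602-75690864 held a peak in unstimulated replicate 2 with a score of 191.69 (percentile 79.8), in LPS replicates 1 and 3 with scores of 173.25 and 312.98 (percentiles 69.9 and 85.2) and in apoptotic cell replicate 1 with a score of 106.63 (percentile 32.7). This inner position was found in all 3 conditions, and the pair of shared positions beyond the 3′ end in stimulated replicates. A further peak outside the gene, at chr2:75722014-75722197 and 17351 bp above its upper end, was listed in unstimulated replicate 2 alone, with a score of 292.42 and the highest percentile at this gene, 96.8. The segment that the deposited table gives to Nfe2l2, chr2:75709192-75709393, was listed in apoptotic cell replicate 3 alone, with a score of 114.94 (percentile 62.1).

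**Figure D3:**
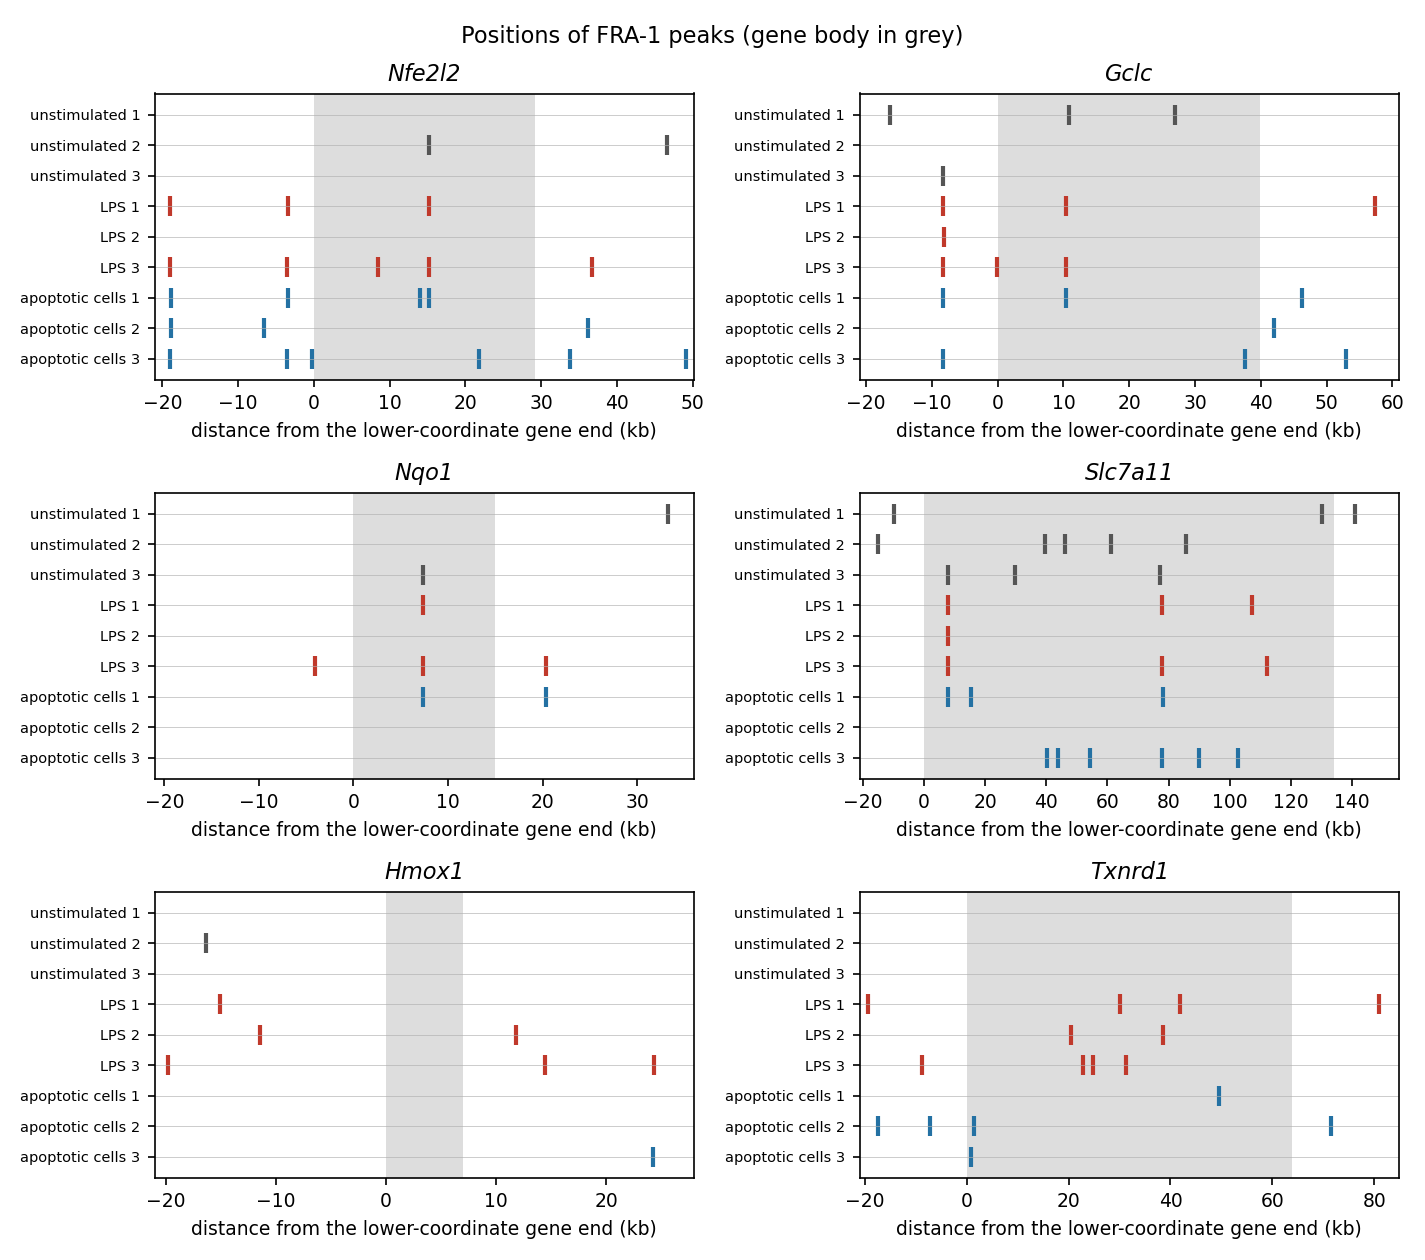
Positions of FRA-1 peaks (vertical marks) at 6 of the genes, with 1 row for each replicate, coloured by condition. The x axis is the distance from the lower-coordinate end of the gene in kb, so that Nfe2l2, Nqo1 and Slc7a11 run from right to left, and grey marks the gene body. Marks line up over several replicates at Nfe2l2, Gclc, Nqo1 and Slc7a11, and at Txnrd1 no pair of replicates has a mark at the same position.

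Gclc held the position shared by the most replicates. It encodes the catalytic subunit and Gclm the modifier subunit of glutamate-cysteine ligase, the rate-limiting enzyme of glutathione synthesis. The Gclc window (gene body chr9:77754535-77794489) held 3, 0 and 1 peaks in the unstimulated replicates, 3, 1 and 3 in the LPS replicates and 3, 1 and 3 in the apoptotic cell replicates. The groups overlapped, with equal means of 2.33 peaks after LPS and after apoptotic cells. At chr9:77746146-77746622, 7913 bp below the lower end of Gclc, a peak was listed in 6 of the 9 replicates, more than at any other position of the 10 genes. Its score was 196.4 in unstimulated replicate 3, 433.79, 75.21 and 405.94 in the 3 LPS replicates, and 169.54 and 146.67 in apoptotic cell replicates 1 and 3. The percentiles were 75.5 in unstimulated replicate 3, and 75.5 and 76.6 in the apoptotic cell replicates. LPS replicates 1 and 3 stood highest, with percentiles of 98.3 and 94.3, and LPS replicate 2 lowest, with 12.0. The score of 433.79 was the highest of all 130 peaks, though scores were not scaled between replicates, and its percentile was not the highest. Inside Gclc, chr9:77764800-77765069 held a peak in LPS replicates 1 and 3 (scores 178.77 and 153.09, percentiles 77.6 and 35.9) and apoptotic cell replicate 1 (score 129.52, percentile 63.3). A peak at 77765349 to 77765551, with a score of 322.72, was listed in unstimulated replicate 1 alone. Its percentile of 98.7 was the highest of the 130 peaks.

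The Gclm window (gene body chr3:122245487-122267215) held 0, 0 and 1 peaks without stimulation, 2, 0 and 2 after LPS and 1, 0 and 4 after apoptotic cells. Dnttip2 was nearer than Gclm to the unstimulated peak, the peak of apoptotic cell replicate 1 and others at the upper end of the window. The position chr3:122264518-122264635, inside Gclm and near its 3′ end, was shared by LPS replicates 1 and 3 with scores of 215.27 and 312.53 (percentiles 81.6 and 85.2). The peak closest to the antioxidant core printed above lay 2441 bp below the lower end of the gene, in apoptotic cell replicate 3, with a score of 95.67 (percentile 45.2).

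Slc7a11 has the longest window of the 10 genes, 174152 bp, and had the most peaks without stimulation, 3, 5 and 3. After LPS it had 3, 1 and 3 and after apoptotic cells 3, 0 and 6, so that its mean was lower after LPS (2.33) than without stimulation (3.67), within the spread of the replicates. Besides Srxn1, it was the only gene of the 10 with a lower mean after LPS. The peaks of the unstimulated replicates fell on different positions, and 1 of these, chr3:50372643-50372816 inside Slc7a11, was also found elsewhere. There, the score was 146.12 in unstimulated replicate 3, 215.27, 155.45 and 255.01 in the LPS replicates and 198.48 in apoptotic cell replicate 1. In the same order, the percentiles were 48.0, then 81.6, 69.1 and 73.1, then 87.3. This position and that below Gclc were the only ones at the 10 genes with a peak in all 3 LPS replicates. A position closer to the 1 listed start, chr3:50442484-50442770 with its midpoint 986 bp downstream, held a peak in LPS replicates 1 and 3 (scores 208.6 and 140.9, percentiles 80.5 and 34.0) and apoptotic cell replicate 3 (score 170.5, percentile 88.8). In apoptotic cell replicate 1, the peak lay nearer still, 248 to 527 bp downstream of the start, with a score of 84.61 (percentile 16.5), and this is the segment that the deposited table gives to Slc7a11.

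Nqo1 encodes a quinone reductase and is among the most used readouts of NRF2 activity. Its window (gene body chr8:107388225-107403205, minus strand) held 1, 0 and 1 peaks without stimulation, 1, 0 and 3 after LPS and 2, 0 and 0 after apoptotic cells, and the groups overlapped. The position chr8:107395487-107395663, inside Nqo1 with its midpoint 7630 bp downstream of the start, held a peak in unstimulated replicate 3 with a score of 196.4, in LPS replicates 1 and 3 with scores of 267.31 and 385.18 and in apoptotic cell replicate 1 with a score of 169.54. Their percentiles were 75.5, 88.8, 93.2 and 75.5. These 4 replicates also had the peak below Gclc and the more widely shared peak inside Slc7a11.

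Hmox1, heme oxygenase 1, had peaks in its window (gene body chr8:75093618-75100593) but none inside the gene. It had 0, 1 and 0 peaks without stimulation, 1, 2 and 3 after LPS and 0, 0 and 1 after apoptotic cells. LPS values were 1 or higher in each replicate, and unstimulated replicate 2 reached the lowest of them. The 8 peaks fell on 7 positions between 4737 and 19730 bp from the gene. Only that at chr8:75082045-75082313, in LPS replicate 2 with a percentile of 7.78, had Hmox1 as its nearest gene. The others were nearer to Tom1 or Mcm5. The 1 position found in a pair of replicates, chr8:75117749-75118055, lay inside the neighbouring Mcm5, a DNA replication gene. The highest percentile was reached by a peak of LPS replicate 2 at chr8:75105330-75105505, with a percentile of 90.8, and Mcm5 is nearer to it than Hmox1.

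Bach1 had 1, 0 and 0 peaks without stimulation, 1, 0 and 3 after LPS and 2, 0 and 0 after apoptotic cells. Inside the gene, chr16:87701662-87701781, with its midpoint 2767.5 bp downstream of the start, was shared by LPS replicates 1 and 3 with scores of 125.27 and 332.97 (percentiles 42.2 and 87.5). Sqstm1 encodes the autophagy receptor p62, which binds KEAP1 and can thereby free NRF2. It had 0, 1 and 1 peaks without stimulation, 1, 1 and 4 after LPS and 0, 0 and 2 after apoptotic cells. The position chr11:50193003-50193302, 6850 bp beyond its 3′ end and inside Mrnip, was shared by LPS replicates 1 and 3 (scores 147.46 and 225.97, percentile 63.7 for both) and apoptotic cell replicate 3 (score 189.16, percentile 93.1). Srxn1 had 3 peaks in all, 1 in unstimulated replicate 2 and 2 in apoptotic cell replicate 2, each at a position of its own. The peaks of apoptotic cell replicate 2 were nearer to Scrt2 and to Tcf15 than to Srxn1. Srxn1 was the gene with the fewest peaks.

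Over the 10 genes, the mean number of peaks was higher after LPS than without stimulation in 8 genes and lower in 2, where 74.0% of all genes were higher and 12.8% lower. The median difference was 1.0 peaks against 0.667 over all genes. For apoptotic cells over unstimulated, it was higher in 6, lower in 1 and equal in 3, with a median of 0.333 against 0.667, and 73.4% of all genes were higher and 13.0% lower. Both comparisons use the same unstimulated replicates. Between LPS and apoptotic cells, 5 genes had a higher mean after LPS, 4 after apoptotic cells and 1 an equal one, with a median of 0.333 against 0 over all genes, of which 44.9% were higher after LPS and 40.3% after apoptotic cells. None of the 10 genes was without overlap in that comparison, where 1.99% of all genes had more peaks in every LPS replicate and 1.28% in every apoptotic cell replicate.

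The 130 peaks were 106 to 505 bp wide and fell on 97 positions, of which 46 lay inside 1 of the 10 genes and 9 inside another gene. For 76 of the 97 positions, no other protein-coding gene was nearer. A peak in a single replicate was the rule, at 83 positions. Of the 25 positions in unstimulated macrophages, 0 had a peak in 2 replicates, against 6.19% of the positions in all gene windows. After LPS, 11 of 43 did so (25.6%, all gene windows 18.5%), and each of these 11 included both LPS replicates 1 and 3, the pair that had most peaks in common throughout the genome. After apoptotic cells, 3 of 45 did so (6.67%, all gene windows 6.11%). Over the 9 replicates together, 9 positions at 5 genes had a peak in at least 3 replicates, or 9.28% against 5.03% of the positions in all gene windows. They comprise 3 at Nfe2l2, 2 each at Gclc and Slc7a11 and 1 each at Nqo1 and Sqstm1, and 5 of the 9 lie inside the gene. All 9 included LPS replicates 1 and 3, 4 were found in all 3 conditions, and the part of the peak width class in this sharing was not tested.

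**Figure D4:**
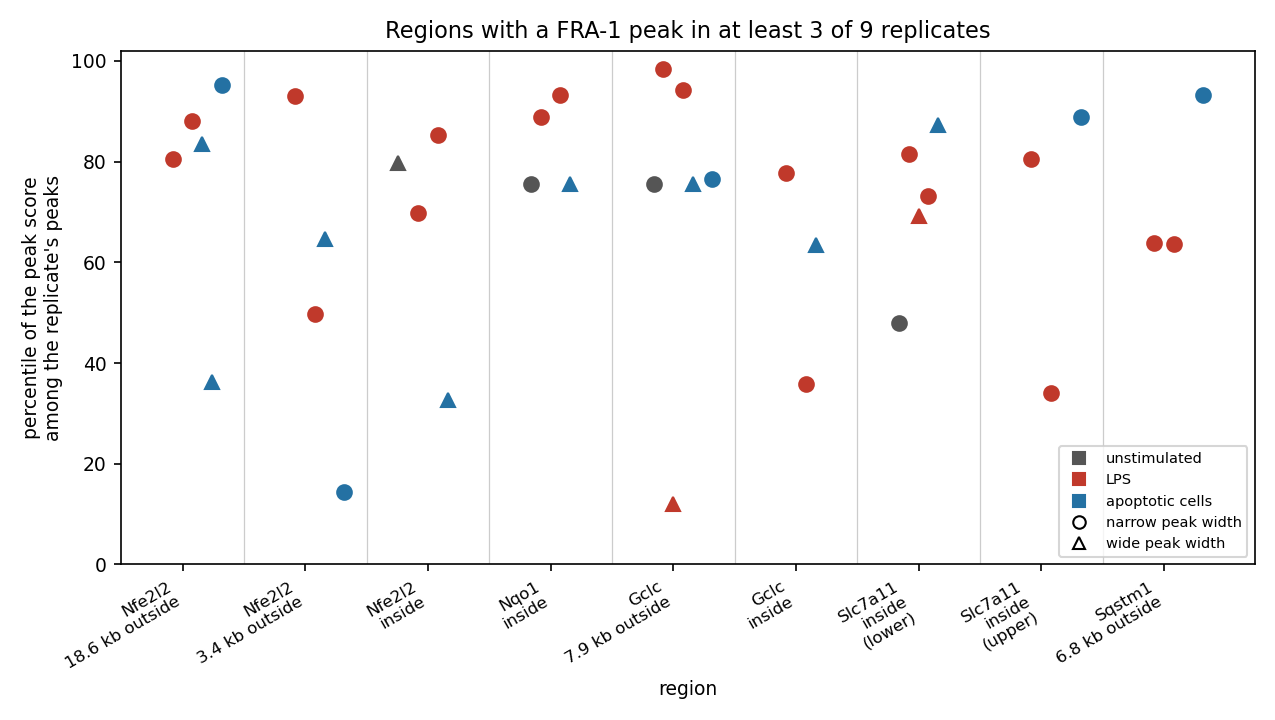
Percentile of the peak score among all peaks of the same replicate (y axis) at the 9 positions that had a FRA-1 peak in at least 3 of the 9 replicates (x axis, by gene and distance from it). Each point is 1 replicate, coloured by condition, with circles for replicates of the narrow and triangles for those of the wide peak width class. LPS replicates 1 and 3 are present at every position, and the lowest point, with a percentile of 12.0, is LPS replicate 2 below Gclc.

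Scores differed with the number of replicates that shared a position. The 37 peaks at the 9 positions had a median score of 184.58 and a median percentile of 75.5, and the 83 peaks at positions of 1 replicate had 133.78 and 52.1. These raw scores come from replicates that were not scaled to each other. All 9 positions include LPS replicate 3, whose median score was 180.72, against 106.48 to 150.73 in the other replicates. The part of this in the score difference was not tested. The 10 peaks at the 5 positions of 2 replicates had a median score of 157.48 and a median percentile of 48.0, below that of the positions of 1 replicate. For the positions of at least 3 and of 1 replicate, the scores overlapped widely, from 72.55 to 433.79 and from 54.94 to 324.62. When equal numbers of top-scoring peaks were taken from every replicate, the positions at Nqo1, inside Slc7a11 and 18603 bp beyond Nfe2l2 kept all of their 4, 5 and 5 replicates and that below Gclc kept 5 of 6. The position inside Nfe2l2 kept 3 of 4, and the other 4 positions kept 2 each.

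The wider pathway was followed in 47 further genes around NRF2, all of which were found in RefSeq. Of these, 23 (48.9%) had a peak in at least 2 unstimulated replicates, 43 (91.5%) in at least 2 LPS replicates and 36 (76.6%) in at least 2 apoptotic cell replicates, beside 44.6, 73.5 and 69.6% of all genes. More peaks in every LPS than in every unstimulated replicate were found in 7 of the 47, where 9.87% of all genes showed this, and the reverse in 0. With equal numbers of top-scoring peaks, 0 of the 47 had more in every LPS replicate, where 1.78% of all genes did. The 7 genes were the small MAF gene Mafg and Pgd of the pentose phosphate pathway and, named after their values were seen, the ubiquitin ligase component Cul3, Gstm1, Sod2, Me1 and Fech. For apoptotic cells over unstimulated, the 2 genes were Mafg and Tkt, where 6.56% of all genes showed this. With equal numbers of peaks, 0 of the 47 did, where 1.37% of all genes did. Mafg had 0, 0 and 0 peaks without stimulation, 1, 2 and 2 after LPS and 2, 1 and 4 after apoptotic cells, in a window that takes in 7 other genes.

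Keap1, which encodes the inhibitor of NRF2, was the only gene of the 47 with more peaks in every unstimulated than in every apoptotic cell replicate, as did 0.169% of all genes. It had 1, 1 and 2 peaks without stimulation, 1, 2 and 1 after LPS and 0, 0 and 0 after apoptotic cells, in a window shared with 2 other genes. It was also above apoptotic cells in every LPS replicate, together with the biliverdin reductase gene Blvra, which was named after its values were seen and had 4, 2 and 3 peaks after LPS against 1, 0 and 1. This pattern was seen in 1.99% of all genes, and neither gene kept it with equal numbers of top-scoring peaks. For Keap1 the loss turned on a tie. Its peak in LPS replicate 1 had the lowest score kept in that replicate, 136.64, which peaks on both sides of the cut shared. The peaks of Keap1 fell on 7 positions, of which only chr9:21246635-21246746 was shared, by LPS replicates 3 and 1 with scores of 265.27 and 136.64 (percentiles 78.1 and 62.9). Mafk had 2, 1 and 0, then 0, 0 and 1, then 0, 1 and 2 peaks in the same order, and Maff 2, 0 and 0, then 3, 0 and 3, then 2, 1 and 0. Neither of these small MAF genes separated the conditions.

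Positions with a peak in all 3 replicates of a condition were found at 9 of the 47 genes, and no share over all genes is given for this. Of the positions in all gene windows, 2.53% had a peak in all 3 unstimulated, 3.65% in all 3 LPS and 3.11% in all 3 apoptotic cell replicates. The most extensive at the 47 genes were at Tkt, which encodes transketolase of the pentose phosphate pathway. Tkt had 3, 2 and 3 peaks without stimulation, 3, 3 and 7 after LPS and 7, 4 and 5 after apoptotic cells. At chr14:30579911-30580091, beyond the upper end of the gene, 8 of the 9 replicates had a peak, all but unstimulated replicate 2, with LPS scores of 361.55, 250.6 and 556.89 (percentiles 96.4, 96.3 and 99.5). At chr14:30537510-30537688, below its lower end, 8 of the 9 had one as well, all but unstimulated replicate 1, with LPS scores of 484.05, 126.89 and 470.12 (percentiles 99.2, 59.0 and 98.2) and apoptotic cell scores of 322.5, 308.35 and 346.04 (percentiles 98.3, 97.7 and 99.6). These Tkt positions recurred in more replicates than any at the 10 antioxidant genes. They are the most extensive among 47 genes, a longer list in which a higher maximum can arise from the number of genes alone. After LPS, such positions were also found at the glutathione conjugate exporter gene Abcc1 (mean score of the 3 replicates 322.67), at Ugdh (306.71), at the glutathione peroxidase gene Gpx1 (194.3) and at Pgd (171.48). After apoptotic cells, they were found at the peroxiredoxin gene Prdx2 (209.99), at Idh1 (195.66) and at Aldh2 (150.2). Each gene stands only under the condition of its highest mean, so that such a position in another condition is not excluded. Means of different conditions are not comparable, since the scores were not scaled between replicates.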

How the data were processed

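FRA-1 ChIP-seq peaks were analysed in 9 replicates, 3 each of unstimulated, LPS-stimulated and apoptotic cell-treated peritoneal macrophages, grouped by the labels. The deposited tables, 1 per condition, list genomic segments with a score for each replicate, -1 where it has no peak, and the authors' notes name BWA 0.7.14, bedtools and the build mm10/GRCm38. Other columns hold the number of replicates with a peak, the sum of the scores and an assigned gene. The caller behind the deposited tables is not given in the sources used here. The study's methods name Bowtie2 and MACS2 for a re-analysis of the raw reads, without stating that it made these tables. Pooled input DNA (3 samples) was not analysed here.

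Touching segments of equal score were joined into peaks and overlapping peaks of replicates into positions, with an overlap of at least 1 bp. Peaks were counted in windows of 20 kb around 21900 RefSeq protein-coding genes. Genes were called where all replicates of a condition exceeded all of the other, with exact permutation tests and Benjamini-Hochberg adjustment over all genes (Python 3.11.15, scipy 1.17.1, pandas 2.3.3). The steps were tested on simulated data. Windows of 5 and 50 kb, the deposited gene column alone, nearest genes, scores of at least 100, equal numbers of peaks and leaving out replicates were tried as alternatives. The 10 genes are named in full. Of the wider list, those with a position in all 3 replicates of a condition (the 8 with the highest mean score), Keap1 and the small MAF genes are named, and others where said. The genes and lists were chosen with earlier results of these data known. Sequences are from RefSeq (GRCm38). No genome sequence was used, so that motifs in peaks were not analysed here.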

Additional observations from a re-analysis of the deposited data

How the results depend on the processing

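No paired analysis was possible because no column of scores names its mouse. Genes of the 10 with a peak in at least 2 unstimulated replicates (4) numbered 2 with windows of 5 kb, 8 with 50 kb, 0 by the deposited gene column and 2 with nearest genes, and 1 to 3 when a replicate was left out. After LPS (9), they numbered 0 by the gene column and 5 to 9 without a replicate. After apoptotic cells (5), they numbered 9 with 50 kb, 0 by the gene column and 3 to 5 without a replicate. Leaving out a replicate could only keep or lower these counts, since the rule then asks for a peak in both others. A wider window could only keep or raise them, for any genes. For these alternatives no share over all genes is given, so that the counts cannot be set against a background. Positions at the 10 genes numbered 16, 39 and 1 without stimulation (25), 26, 74 and 2 after LPS (43) and 28, 70 and 3 after apoptotic cells (45) with 5 kb, 50 kb and the gene column, respectively. With equal numbers of peaks they numbered 25 without stimulation, 20 after LPS and 20 after apoptotic cells, so that the order of the conditions turned, and the cause was not tested. The ties at the cut described above also entered the numbers after LPS and after apoptotic cells. With scores of at least 100 they numbered 29 after apoptotic cells, and without a replicate 15 to 18, 24 to 38 and 25 to 36 in the 3 conditions.

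Genes with more peaks in every LPS than unstimulated replicate (1) numbered 0 by the gene column and 1 to 3 without a replicate. Leaving out a replicate could only keep or raise this number. Those for apoptotic cells over unstimulated (2) numbered 1 with 5 kb, 50 kb, nearest genes or scores of at least 100, 0 by the gene column and 0 with equal numbers of peaks. Those for LPS over apoptotic cells (0) numbered 1 with 5 kb and 0 to 2 without a replicate. For such calls, shares over all genes are given only for all peaks in windows of 20 kb and for equal numbers of peaks. With unstimulated replicate 3 and LPS replicate 2 both left out, an alternative chosen after seeing the data, 1 gene had a peak in at least 2 unstimulated replicates and 3 genes had more peaks in every LPS replicate. With equal numbers of peaks, the share of all genes with more peaks in every LPS than unstimulated replicate was 1.78% and the reverse 1.06%, where it was 9.87 and 0.187% with all peaks. In the wider list, 0 genes then had more peaks in every LPS than unstimulated replicate, where 7 did with all peaks. Keap1 still had more in every unstimulated than apoptotic cell replicate, as then did 0.954% of all genes. Keap1, through the tie in LPS replicate 1, and Blvra were then no longer separated between LPS and apoptotic cells. Fth1, named after its values were seen, then had more peaks in every LPS replicate, as did 1.66% of all genes. A separation cannot be undone by leaving out replicates, and filtering peaks could not raise the unstimulated Txnrd1 counts of 0. With these limits, the Txnrd1 difference between LPS and unstimulated kept its separation in all settings but the gene column. That of Nfe2l2 between apoptotic cells and unstimulated was lost with 5 kb, the gene column, nearest genes, scores of at least 100 and equal numbers of peaks, and that of Txnrd1 with 50 kb, the gene column and equal numbers of peaks. Neither mean difference of Txnrd1, nor that of Nfe2l2, changed sign. For these changes, the cause was not tested. Without read counts, the absence of a listed peak cannot be told from low depth.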
